A study of Mus musculus with 8 samples.

Results

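The unstressed brain of the mouse fetus at E15.5 (the embryonic day) was described from the 4 samples whose labels gave their condition as control, out of 8 samples in the series. They were brains of wild type fetuses, whose strain the labels give as C57BL/6 and the methods as the substrain C57BL/6Slac, 2 female (F36 and F37) and 2 male (M30 and M31), and the study's sequencing record placed all 4 in 1 litter. The dam of this litter did not go through the chronic unpredictable mild stress to which the dam of the other 4 brains was exposed during pregnancy, and the effect of stress was not examined. The stressed litter enters only where the sex differences of the control brains are set beside those of the other litter, or fitted with all 8 brains. Each library was made from the polyadenylated RNA of 1 brain and nothing was pooled. The study describes the tissue as whole brain with forebrain, midbrain and hindbrain, whereas its sequencing record carries the tissue name half_whole_brain, and which part of the brain went into each library is not given in the sources used here. Because the 4 brains shared a dam, the spread among them is the spread within 1 litter and says nothing on how litters differ.

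At E15.5 the neural tube of the mouse is in the middle of neurogenesis. Radial glia line the ventricles and divide, intermediate progenitors multiply their output, and newborn neurons migrate outwards and send out axons, whose growth relies on tubulin, actin and the proteins that bind them. Astrocytes and myelin-forming oligodendrocytes arise later, while blood vessels and microglia, the resident macrophages of the brain, are already in place. A bulk library sums over all of these cells, so that fewer cells of a type and less RNA per cell cannot be told apart.

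The 4 libraries held 27484739 (F36), 28475812 (F37), 27568437 (M30) and 28473789 (M31) counts over genes, so that the deepest exceeded the shallowest by a factor of 1.04. Values are given as counts per 1000000 counts (CPM), which compare a gene between brains, or as transcripts per 1000000 transcripts (TPM), in which counts are divided by the exonic length of the gene and which compare genes with each other. Each value after a ± sign is the standard deviation (SD) over the 4 brains (n = 4).

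Of the 54752 genes listed, 32139 had at least 1 count in any control brain and 23103 in every control brain. A level of at least 1 TPM in every brain was reached by 16420 genes, of which 13449 were protein-coding, or 61.4% of the 21921 protein-coding genes listed. Of these protein-coding genes, 9797 reached 10 TPM, 1873 reached 100 TPM and 69 reached 1000 TPM in every brain. The median protein-coding gene above 1 TPM stood at 26.6 TPM, with the 10th percentile at 3.43 TPM and the 90th at 134 TPM. Protein-coding genes took 97.7% ± 0.048 of the counts, and long intergenic noncoding RNAs took 0.955% ± 0.064.

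The transcriptome was not carried by a few genes. The 10 most abundant genes held 3.64% ± 0.052 of the counts, the 100 most abundant held 13.9% ± 0.048 and the 1000 most abundant held 43.2% ± 0.084, and 1374 genes together made up 50% of the counts. On the TPM scale, which gives more weight to short transcripts, the same numbers of genes held 9.07%, 23.7% and 52.1%.

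**Figure D1:**
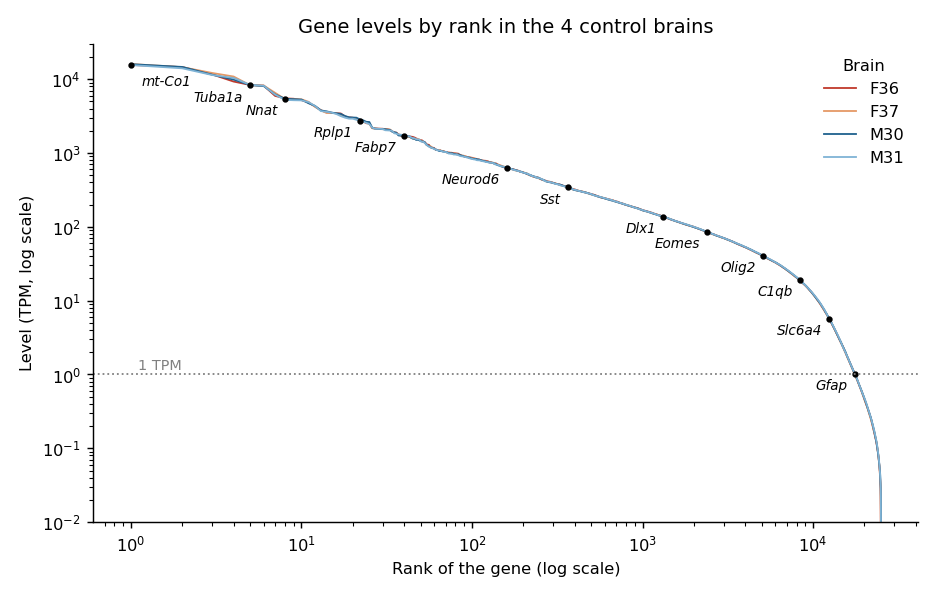
The level of each gene in TPM against its rank, both on log scales, with a line for each of the 4 control brains and dots for selected genes at their mean level. The lines lie on top of each other from mt-Co1 at 15802 TPM down to the dotted line at 1 TPM, and genes with a mean below 1 count are not drawn.

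The sequences upstream of transcription start sites are shown here for the genes at the ends of this scale, because promoter composition differed between abundant and silent genes. The 250 bases before the RefSeq start (GRCm38.p6) are printed 5′ to 3′ on the strand of the gene, with every CpG dinucleotide, and a TATAAA motif where a match was found between 45 and 16 bases before the start, in capitals. Tuba1a (chr15:98953502-98953751, minus strand, 8256 TPM) and Nnat (chr2:157559828-157560077, plus strand, 5359 TPM) were the most abundant genes whose RefSeq start lay within 500 bases of the gene's start in the count files. Tubb2a (chr13:34078009-34078258, minus strand, 1763 TPM) was the most abundant such gene with TATAAA in that position, and Olfr1 (chr11:73399496-73399745, minus strand), an odorant receptor with no count in any of the 4 brains, stands for the silent genes.
Tuba1a: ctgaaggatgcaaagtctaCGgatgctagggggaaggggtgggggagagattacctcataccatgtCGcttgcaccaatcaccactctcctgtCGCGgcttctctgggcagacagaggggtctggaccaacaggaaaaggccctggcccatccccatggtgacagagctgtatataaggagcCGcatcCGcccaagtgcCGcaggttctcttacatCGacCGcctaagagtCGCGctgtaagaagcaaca
Nnat: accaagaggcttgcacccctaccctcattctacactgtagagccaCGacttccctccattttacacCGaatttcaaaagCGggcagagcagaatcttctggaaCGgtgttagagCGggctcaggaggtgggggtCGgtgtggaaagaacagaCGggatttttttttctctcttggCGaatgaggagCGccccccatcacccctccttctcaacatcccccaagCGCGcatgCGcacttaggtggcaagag
Tubb2a: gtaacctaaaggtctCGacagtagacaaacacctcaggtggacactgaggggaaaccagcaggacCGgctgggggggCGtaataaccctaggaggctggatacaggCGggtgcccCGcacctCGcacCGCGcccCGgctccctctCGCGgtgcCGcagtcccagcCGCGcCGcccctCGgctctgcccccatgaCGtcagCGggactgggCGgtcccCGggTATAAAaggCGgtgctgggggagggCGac
Olfr1: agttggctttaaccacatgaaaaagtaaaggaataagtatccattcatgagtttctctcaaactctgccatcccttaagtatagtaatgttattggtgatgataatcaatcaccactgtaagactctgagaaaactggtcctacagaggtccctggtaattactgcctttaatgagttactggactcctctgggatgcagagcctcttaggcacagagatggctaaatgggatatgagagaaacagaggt
Tuba1a held 11 CpG sites in this window, Nnat 12 and Tubb2a 22, the last with its TATAAA starting 29 bases before the start, while Olfr1 held 0.

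Upstream sequences were found for 16515 of 21901 named protein-coding genes. For 13839 of them (83.8%) the RefSeq start lay within 500 bases of the gene's start in the count files. The values below use all 16515, so some windows may not be the promoter of the gene counted. The 2597 genes with no count in any brain had a mean of 2.06 CpG sites per 250 bases and a GC content of 41.6%. Odorant receptors, most of which had no count, gave 929 of the 16515 promoters. Their mean was 0.964 CpG sites with a GC content of 34.7%, and the silent genes were not examined without them. Among the 13918 genes with counts, ordered by TPM and divided into 10 equal groups, the mean number of CpG sites was 4.0 in the lowest group, 10.1 in the third, 16 in the fifth and 19 in the highest. GC content went from 47.6% in the lowest group to 61.7% in the highest, and most of this change had taken place by the fifth group (60.1%), at a median of 11.5 TPM. The motif GGGCGG on either strand, the core of the site bound by Sp-family factors, was found in 14.2% of promoters in the lowest group and 64.2% in the highest, against 44.5% of all promoters. CCAAT on either strand showed no such gradient, with 33.7% in the lowest group, 37.1% in the highest and 36.1% of all promoters. TATAAA between 45 and 16 bases before the start was found in 7.74% of the silent genes, 4.74% of the lowest group, 0.216% of the eighth and 1.44% of the highest, against 2.90% of all promoters, so that the highest group stood above the fifth to the ninth. The motifs GGGCGG and CpG overlap in their letters and are not separate observations. Abundant genes with TATAAA in this window included Tubb2a, Jpt1 (956 TPM), the prolyl isomerase gene Ppia (891 TPM), the actin-bundling Fscn1 (705 TPM), the creatine kinase gene Ckb (638 TPM), Elavl3 (415 TPM) and Vim (323 TPM).

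The most abundant transcripts by TPM came from the mitochondrial genome, the microtubule and actin cytoskeleton and the translation machinery. mt-Co1, which encodes a subunit of cytochrome c oxidase, led with 15802 ± 259 TPM, followed by mt-Cytb (14457 ± 283 TPM) and mt-Nd1 (11655 ± 334 TPM), and 7 of the 20 highest genes lay on the mitochondrial genome. The first nuclear genes were Tuba1a, the main alpha-tubulin of young neurons (8256 ± 137 TPM), and Eef1a1, the elongation factor that carries aminoacyl-tRNA to the ribosome (8244 ± 69.1 TPM), whose levels did not differ beyond their spread. Nnat, an imprinted gene encoding a small membrane proteolipid, and Stmn1, a destabiliser of microtubules, came next at 5359 ± 116 and 5354 ± 107 TPM, and these also did not differ beyond their spread. Tubb2b (4845 ± 92.4 TPM), Ptma (4297 ± 64 TPM), Tubb3 (3738 ± 59.2 TPM), Tmsb4x (3526 ± 23.6 TPM), Tubb5 (3450 ± 53.1 TPM), Tmsb10 (3323 ± 127 TPM), Actg1 (3061 ± 52.1 TPM), Eef2 (2994 ± 52.7 TPM) and Marcksl1 (2982 ± 54.7 TPM) completed the nuclear genes of this set.

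Counting reads without dividing by length gave a different order, and 13 of these 20 genes were also among the 20 highest by CPM. Meg3, a maternally expressed long noncoding RNA of 18089 exonic bases in the count files, ranked 8 by CPM (2710 ± 65.1 CPM) but 182 by TPM (580 ± 14.9 TPM). Map1b, a microtubule-associated protein of growing axons, ranked 12 by CPM and 169 by TPM. Conversely mt-Atp8, with 204 bases, ranked 166 by CPM and 4 by TPM (10107 ± 679 TPM), and 21.1% of its length overlapped mt-Atp6.

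The mitochondrial messages were unequal, and the lowest were those that share their sequence with nuclear copies. The 13 mitochondrial mRNAs together took 6.96% ± 0.156 of TPM. mt-Co2 had 35, 40, 31 and 34 counts in F36, F37, M30 and M31, and mt-Co3 had 69, 61, 60 and 66, although both encode subunits of the same complex as mt-Co1, which had 172247, 183044, 176068 and 175188. For mt-Co2, mt-Co3, mt-Atp6, mt-Nd3 and mt-Nd4l, at least 97.6% of all 100-base windows of the transcript were also found in other annotated genes, which include 7 nuclear copies of mitochondrial sequence on chromosome 1 (mm10, chr1:24611535-24616197). The copies themselves had at most 22 counts, and reads placed at several positions were by default not counted. The share for mt-Cytb and mt-Nd1 was 0%, for mt-Co1 30.8% and for mt-Nd4 60.8%, so the levels of the 5 genes and the mitochondrial total are uncertain. Over all protein-coding genes, 550 had at least 90% of such windows in common with another gene. Of these, 16 reached 1 TPM in every brain, or 2.91%, against 61.4% of all protein-coding genes. Classes with few counts also hold such genes, among them 31 of 320 vomeronasal receptor genes, a class in which 217 had no count in any brain. The part of shared sequence in the low levels of the 550 was not tested. Tuba1a shared 65.1% of its windows and Hba-a2 79.5%, and their levels are uncertain as well.

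Among nuclear gene classes, those serving protein synthesis and the cytoskeleton were largest. The 83 cytosolic ribosomal protein genes took 5.73% ± 0.118 of TPM, and 74 of them stood above 100 TPM in every brain, led by Rplp1 (2747 ± 120 TPM), Rps15 (2110 ± 53.1 TPM) and Rplp0 (2096 ± 51.0 TPM). Translation factors took 2.24% ± 0.0083, of which Eef1a1 was 36.7%. Nuclear-encoded subunits of the respiratory chain took 1.82% ± 0.039, splicing factors and hnRNPs 1.33% ± 0.016 and proteasome subunits 0.644% ± 0.0096.

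The 17 tubulin genes took 2.36% ± 0.029 of TPM and 13 of them reached 1 TPM in every brain. Of these, 4 (Tuba1a, Tubb2b, Tubb3 and Tubb5) made up most of that share. The 4 stathmins took 0.824% ± 0.016, of which Stmn1 was 65%, with Stmn3 (1542 TPM), Stmn2 (782 TPM) and Stmn4 (558 TPM) behind it. Actins were almost wholly Actg1 and Actb (2153 ± 45 TPM), whereas the muscle actins Acta1, Acta2 and Actc1 stood at 4.51, 0.930 and 0.257 TPM. Of 102 histone genes only 21 reached 1 TPM in every brain, and the highest was H3f3b, a replication-independent variant with polyadenylated mRNA (1116 ± 12.8 TPM). Replication-dependent histone mRNAs lack a poly(A) tail and would not be captured by the oligo(dT) beads, and this was not tested here.

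**Figure D2:**
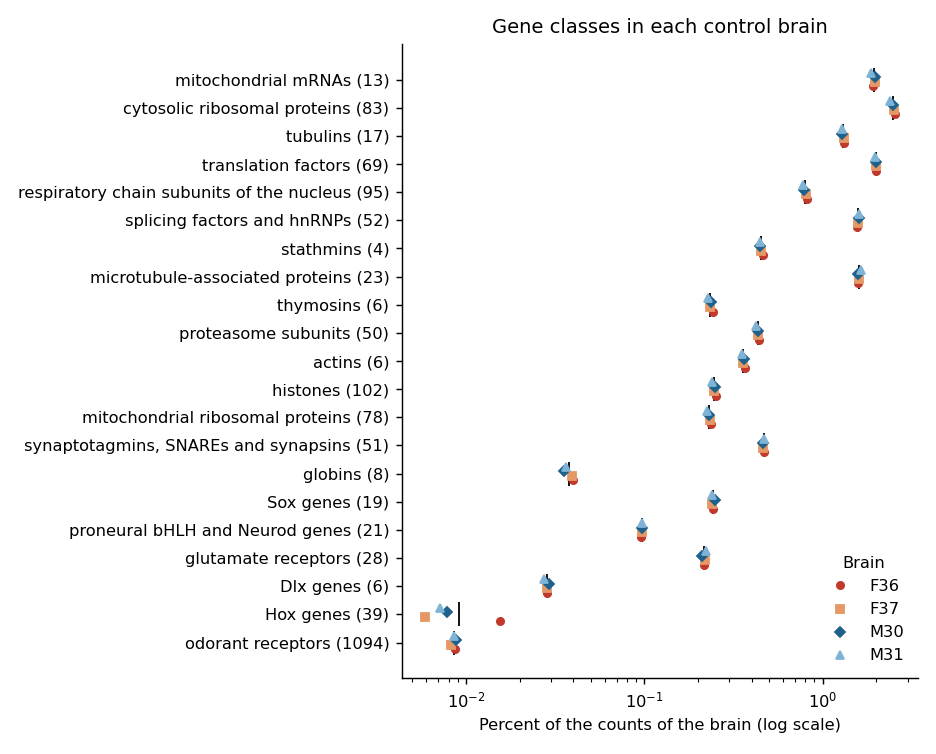
Percent of the counts of each control brain (log scale) held by 21 gene classes, with the number of genes listed in parentheses, a symbol for each brain and a tick for the mean. The symbols of a class nearly coincide for most classes, and the Hox genes stand apart, with F36 at 0.0155% and the other brains between 0.00592% and 0.00780%.

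Transcription factors of young neurons and of the telencephalon were among the highest of their classes. Among the 21 proneural bHLH and Neurod genes, Neurod6, made by young cortical projection neurons, stood at 637 ± 28.6 TPM, ahead of Neurod2 (260 TPM), Bhlhe22 (153 TPM), Neurog2 (123 TPM) and Neurod1 (89.5 TPM). The Sox class was led by Sox11 (595 ± 11.8 TPM) and Sox4 (265 TPM) of immature neurons, with the stem cell factor Sox2 at 249 TPM. Lhx2 led the LIM homeobox genes at 137 TPM, and Dlx1 led the 6 Dlx genes at 137 TPM. Of the 4 nuclear factor I genes, which promote the switch from neurogenesis to gliogenesis, Nfix (223 TPM) and Nfib (156 TPM) were higher than Nfia (51.7 TPM).

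Markers of neurons and of dividing progenitors were high. All 14 general neuronal markers stood above 1 TPM in every brain, with a median of 397 TPM and a summed level between 9840 and 10003 TPM, and they included Gap43, a protein of the growth cone (1695 TPM), Ina (1050 TPM) and Dcx, a microtubule-binding protein of migrating neurons (436 TPM). The median of the 10 cortical projection neuron markers was 91.0 TPM, with Bcl11b at 118 TPM, Tbr1 at 104 TPM and Fezf2 at 78.3 TPM. The 8 GABAergic markers had a median of 74.3 TPM, with the GABA-synthesising enzymes Gad2 and Gad1 at 90.5 and 83.2 TPM and the vesicular transporter Slc32a1 at 78.3 TPM.

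The 10 markers of radial glia had a median of 66.7 TPM and were led by Fabp7, a fatty acid binding protein (1721 ± 43.1 TPM), with Vim at 323 TPM, Nes at 117 TPM and Pax6 at 23.2 TPM. Intermediate progenitor genes had a median of 65.7 TPM, with Insm1 at 142 TPM and Eomes at 84.7 TPM. The 8 proliferation genes had a median of 45.1 TPM, from Pcna (177 TPM) to Birc5 (21.8 TPM), and their summed level stayed between 454 and 485 TPM over the 4 brains.

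Glial and myelin markers were low, with exceptions. Gfap, the intermediate filament of mature astrocytes, had 25, 40, 31 and 30 counts and 1.03 ± 0.190 TPM, and Aqp4 stood at 4.99 TPM, while Aldoc (131 TPM), Slc1a2 (47.1 TPM) and Aldh1l1 (41.6 TPM) were higher. Oligodendrocyte precursor markers were present, with Olig1 at 86.3 TPM, Olig2 at 40.8 TPM and Pdgfra at 11.0 TPM. Of the myelin genes, Mbp stood at 17.0 TPM, Mag at 1.81 TPM and Mobp at 0.101 TPM, whereas Mog, a late myelin protein, stood at 46.9 ± 0.777 TPM with 557, 592, 574 and 589 counts. Mog (chr17:37010743-37023398, minus strand) ends 107 bases from the end of Zfp57 (chr17:37001163-37010635, plus strand), an imprint-maintaining zinc finger gene at 369 ± 7.76 TPM that is transcribed towards it. Reads were counted without regard to strand, and the part of this neighbour in the counts of Mog was not tested.

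Vessels and microglia were represented at lower levels, whereas the adult-type globins of blood were high. The 10 endothelial markers had a median of 17.7 TPM, led by the tight junction gene Cldn5 (108 ± 2.73 TPM), the 6 pericyte markers had a median of 14.7 TPM, led by Rgs5 (65.5 TPM), and the 10 microglial markers had a median of 8.71 TPM, with C1qb at 19 TPM. Haemoglobin transcripts of red blood cells took 0.196% ± 0.011 of TPM, led by Hbb-bs with 757 ± 54.5 TPM, Hba-a1 with 424 TPM, Hba-a2 with 390 TPM and Hbb-bt with 359 TPM. The earlier embryonic globins Hbb-y (20.5 TPM), Hba-x (7.14 TPM) and Hbb-bh1 (0.337 TPM) made up 1.43% of globin TPM. The adult-type globin genes shared between 49.7% and 79.5% of their 100-base windows with their copies, so that the division among them is uncertain.

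Markers of tissues that surround the brain were close to 0 with few exceptions. In liver markers, Alb and Serpina1a had 0 counts in every brain, which allows at most 3 counts or 0.109 CPM, and Afp had 1, 3, 2 and 0. The pituitary hormone genes Prl, Gh and Fshb had 0 counts, whereas Pomc (5.61 TPM), which the hypothalamus also expresses, was present. Of the muscle, cartilage and skin markers, Acta1 stood at 4.51 TPM, Col2a1 at 23.0 TPM, Krt10 at 14.4 TPM and Krt1 at 7.53 TPM, while Myod1, Acan and Krt5 stood at or below 0.222 TPM. The 6 leukocyte markers all stood below 1 TPM, with Ptprc at 37, 24, 33 and 31 counts and Cd3e at 0, 2, 0 and 0. Of 1094 odorant receptor genes, 841 had no count in any brain and 17 reached 1 TPM in every brain, the highest being Olfr784 at 7.41 TPM.

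**Figure D3:**
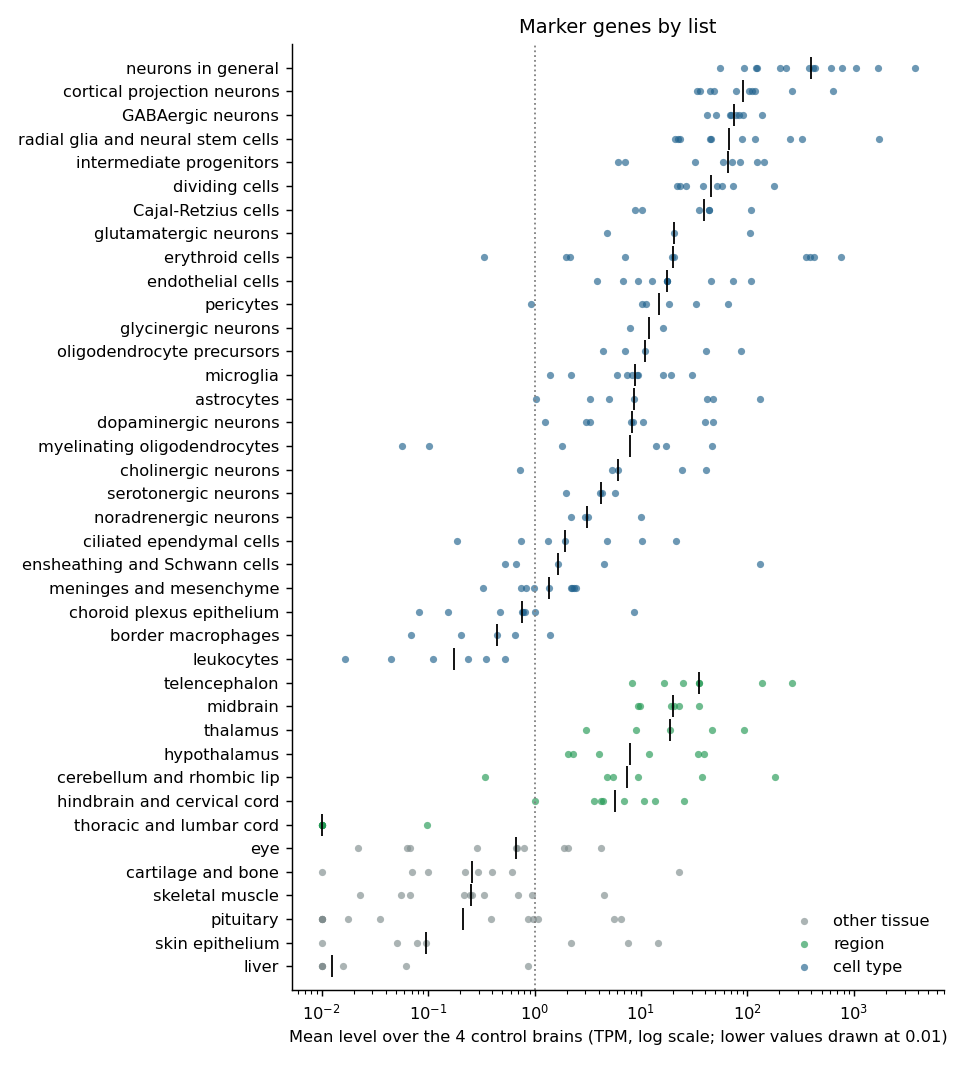
Mean level over the 4 control brains (TPM, log scale) of each marker gene, 1 dot per gene, in lists for cell types (blue), brain regions (green) and other tissues (grey), with a tick at the median of each list. General neuronal markers have the highest median (397 TPM), the region lists other than the thoracic and lumbar cord have medians from 5.65 to 34.9 TPM, and the 6 lists of other tissues have medians below 1 TPM.

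Most genes of the region lists from the telencephalon to the hindbrain and cervical cord reached 1 TPM in every brain. Smaller regions that the study names, such as the hippocampus and amygdala, had no list here. Whether each marker is confined to its region was not tested. Median levels were 34.9 TPM for 7 telencephalic markers, 18.8 TPM for 5 of the thalamus, 7.89 TPM for 6 of the hypothalamus, 19.9 TPM for 6 of the midbrain, 7.45 TPM for 6 of the cerebellum and rhombic lip, and 5.65 TPM for 8 of the hindbrain and cervical cord. Examples are Tcf7l2 of the thalamus (92.2 TPM), Nkx2-1 of the hypothalamus (39.4 TPM), Otx2 and En1 of the midbrain (34.9 and 20.5 TPM) and Barhl1 of the rhombic lip (37.5 TPM). The 6 Hox genes listed for the thoracic and lumbar cord had at most 3 counts in any brain.

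Subunits of the NMDA receptor known from the developing brain stood above those known from the adult brain. For the NMDA class of glutamate receptors, Grin2b (31.8 TPM) and Grin2d (26.0 TPM) were above Grin2a (2.25 TPM) and Grin2c (1.72 TPM), which rise after birth, and the obligatory subunit Grin1 stood at 19.9 TPM. Among GABA-A receptor subunits, Gabra3 stood at 85.3 TPM and Gabra5 at 50.9 TPM, whereas the cerebellar granule cell subunit Gabra6 stood at 0.0548 TPM. The vesicular glutamate transporter Slc17a6 (105 TPM) exceeded Slc17a7 (20.2 TPM), which dominates in the adult cortex.

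Of 20 neuropeptide precursors 17 reached 1 TPM in every brain. Sst, the precursor of somatostatin, was the highest at 344 ± 4.71 TPM and was steady among brains (1776, 1794, 1793 and 1803 counts), followed by Npy (133 ± 10.4 TPM), Nts (43.2 TPM) and Penk (37.1 TPM). Hypothalamic peptides were scarce, with Avp at 13 TPM, Crh at 5.54 TPM, and Oxt and Hcrt at 1.03 and 1.02 TPM. Among hormone receptors, the thyroid receptor Thra stood at 482 ± 11.7 TPM against 1.28 TPM for Thrb, the glucocorticoid receptor Nr3c1 stood at 8.33 TPM and the mineralocorticoid receptor Nr3c2 at 2.63 TPM, and the oestrogen receptors Esr1 and Esr2 stood at 0.210 and 0.245 TPM.

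Imprinted genes, which are expressed from the copy of 1 parent, were abundant, with a median of 53.3 TPM over 18 genes and 17 of them above 1 TPM. Among these 18, Ndn (690 ± 5.64 TPM), Meg3 and Snrpn (431 TPM) led, and H19 stood at 58.3 ± 6.73 TPM. The list was not complete: the imprinted Nnat, at 5359 TPM, was not on it and stood above all of its members. Igf2, the neighbour of H19, stood at 0.459 TPM, but 64.5% of its exonic length overlapped another gene and its level is uncertain. The 10 immediate early genes had a median of 4.77 TPM. They were led by Jun (56.9 TPM), Ier2 (21.2 TPM) and Npas4 (11.1 TPM), with Fos at 1.38 TPM and Egr1 at 2.62 TPM.

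The spread among littermates was small and, for most genes, close to the counting error. Over 12131 genes outside X and Y with a mean of at least 100 counts, the median coefficient of variation (CV, the SD of CPM divided by its mean) was 3.77%, beside a median of 3.12% for the counting error alone (the inverse square root of the count). Genes of 100 to 1000 counts had a median CV of 5.53% against a counting error of 5.01%, and the 350 genes above 10000 counts had a median CV of 2.1% against 0.842%, so that the spread beyond counting is seen in the abundant genes. The common biological coefficient of variation, the spread left after counting error in edgeR's model with a term for sex, was 2.68%. A CV above 20% was found for 36 genes (0.297%).

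The steadiest genes with at least 1000 counts were Efna2 (51.4, 51.4, 51.2 and 51.3 CPM), Fam76b, Copa, Ywhaq, Polr2b, Chtop, Atp2a2, Khdrbs3, Sf3b3 and Tmem183a, with CVs from 0.165% to 0.260%. These values are smaller than the counting error of the same genes, which was 0.731% to 2.64%, so they are the low end of a distribution and do not set these genes apart. Among the genes used as references in quantitative PCR, the CV was 2.41% for Actb, 3.81% for Gapdh and 3.11% for Rplp0. Over the 12 listed it ranged from 0.945% for Sdha to 10.8% for B2m (348, 360, 275 and 331 counts).

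**Figure D4:**
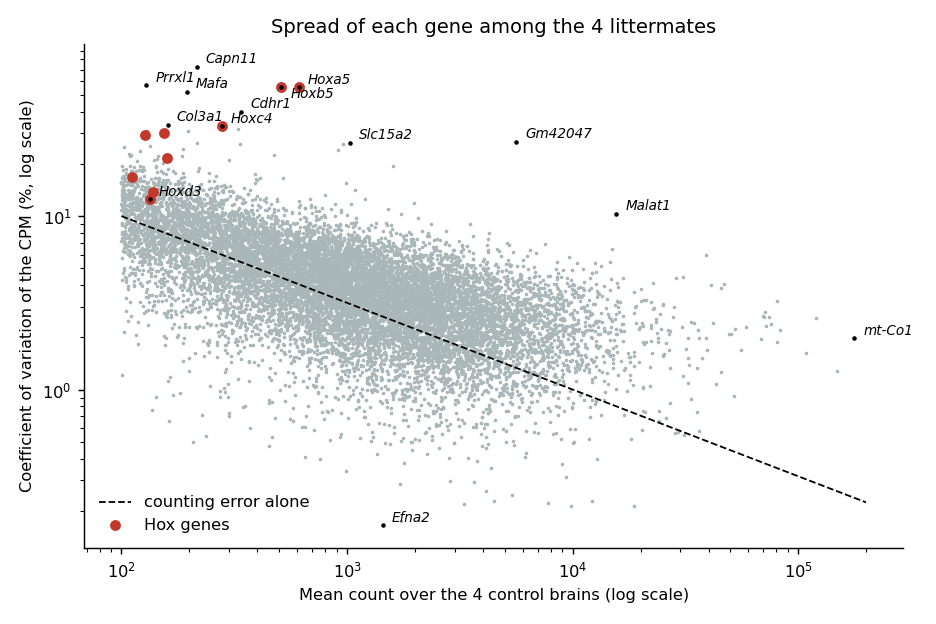
Coefficient of variation of the CPM over the 4 control brains against the mean count, both on log scales, for 12131 genes outside X and Y with a mean of at least 100 counts. The dashed line is the counting error alone, red circles are the 9 Hox genes of this set, and Capn11, Prrxl1, Hoxa5, Hoxb5 and Mafa lie highest, from 52.0% to 72.5%.

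The genes that varied most among littermates were few, and 5 of the 20 with the largest CV were Hox genes (Hoxa5, Hoxb5, Hoxc4, Hoxa4 and Hoxb4), which specify position along the hindbrain and spinal cord. Hox genes made up 9 of the 12131 genes compared. Only 26 of 12131 genes (0.214%) were, in any brain, higher or lower than the mean of the other 3 by a factor of at least 1.5. F36 was high in 9 of them, which were Prrxl1, Hoxa5, Hoxb5, Mafa, Col3a1, Hoxc4, Col1a2, Hoxa4 and Hoxb4. Prrxl1, with 84, 94 and 103 counts in F37, M30 and M31, reached the required mean of 100 counts only through F36. M30 was high in 5 (Capn11, 1700048O20Rik, Calcr, Slc6a4 and Slc15a2), M31 in 1 (Cdhr1) and F37 in 0. In the low direction, F36 stood out in 6 genes, among them Capn11 and Gm42047, F37 in 6 (Hoxb5, Hoxa5, Prrxl1, E230020A03Rik, Hoxb4 and Hoxc4), M30 in 8, among them Cdhr1 and Mafa, and M31 in 1 (Mafa). The mean against which F37 was set includes F36, which was high in 5 of its 6 genes.

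Hoxa5 had 1098 counts in F36 and 377, 480 and 489 in F37, M30 and M31, or 39.9, 13.2, 17.4 and 17.2 CPM. Hoxb5 had 909, 291, 448 and 393 counts, or 33.1, 10.2, 16.3 and 13.8 CPM, so that F36 was 2.51 and 2.46 times the mean of the other 3 brains for these genes. Prrxl1, a homeobox gene of sensory relay neurons in the brainstem and dorsal cord, had 235 counts in F36 and 84, 94 and 103 in the others. All 9 Hox genes with a mean of at least 100 counts were highest in F36. Over all 12131 genes outside X and Y with such a mean, F36 was the highest brain in 29.2%.

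The excess of F36 differed among the Hox paralogue groups, whose number rises with the posterior position of the front border of expression from the hindbrain down the cord. Summed over the genes of a group, F36 stood at 1.26 times the mean of the other brains for group 2, 1.36 times for group 3, 1.66 times for group 4 and 2.51 times for group 5. Group 1, with 10 to 18 counts per brain, stood at 1.73 times, above groups 2 to 4 and out of this order. For group 6, F36 had 7.86 CPM and the others 0.667, 0.725 and 1.26 CPM. For group 8, F36 had 11.4 CPM and the others 0.140, 0.290 and 0.351 CPM, nearly all of it Hoxb8 with 312, 3, 8 and 10 counts. Groups 9 to 12 had at most 2 counts in any brain. Groups 6 to 8 fell below the mean of 100 counts per gene and were examined after the values of the other groups were seen.

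**Figure D5:**
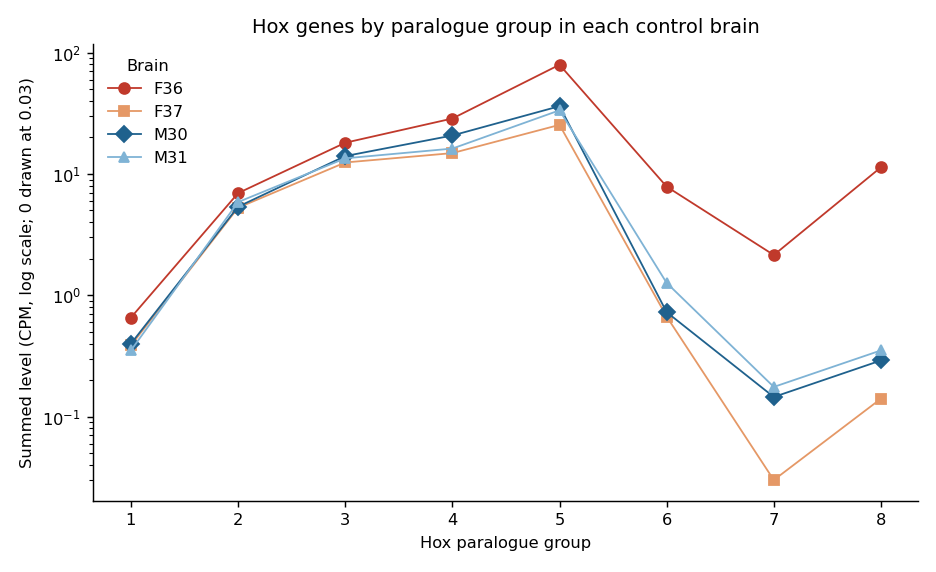
Summed level of the Hox genes of paralogue groups 1 to 8 (CPM, log scale) in each control brain. F36 lies above the other 3 brains in every group, by 1.26 times their mean in group 2 and by 43.6 times in group 8, and F37 has no count in group 7.

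Other lists moved with F36 in part. The collagen genes Col3a1 (237, 134, 133 and 136 counts) and Col1a2 (281, 155, 190 and 164 counts), made by meningeal and other connective tissue cells, were highest there, as were Col1a1 (88, 24, 48 and 25), Dcn (93, 36, 63 and 39) and Lum (8, 3, 6 and 6), while Foxc1, Tbx18, Foxd1 and Ogn of the same list of 9 were not. The list summed to 16.8 TPM in F36 and to 11.7 to 13 TPM in the others. Ttr, the transthyretin of the choroid plexus, had 191, 16, 29 and 58 counts, Aqp1 had 31, 14, 18 and 14 and Clic6 had 35, 19, 16 and 23, so that these 3 were highest in F36. Of the other members, Folr1 (11, 11, 11 and 18), Kl (40, 16, 44 and 28), Prlr (83, 94, 80 and 87) and Slc4a5 (5, 5, 8 and 8) were not, Kcnj13 had at most 1 count, and the list of 8 summed to 27.7 TPM in F36 and 5.15 to 10.7 TPM in the others. The list of 8 hindbrain and cervical cord markers, all of them Hox genes, summed to 117.0 TPM in F36 and 46.3 to 61.4 TPM in the others. The leukocyte list summed to 2.12 TPM in F36, 0.632 TPM in F37, 0.426 TPM in M30 and 1.97 TPM in M31. These sums lay near the floor, with S100a8 at 3, 0, 0 and 4 counts and S100a9 at 4, 1, 0 and 3. Ptprc of the same list had 37, 24, 33 and 31 counts. Marker sums of the telencephalon (501 to 542 TPM), thalamus (164 to 174 TPM) and cerebellum (233 to 242 TPM) did not set F36 apart, with F36 at 506, 171 and 242 TPM. The cerebellar sum was mostly Zic1 (181 TPM). Of its other members, Pax2 (432, 337, 374 and 335 counts), Barhl1 (1115, 1033, 1071 and 1021) and Skor2 (138, 121, 108 and 128) were highest in F36. Atoh1 (72, 74, 60 and 91) and Ptf1a (4, 2, 3 and 6) were not. The part of the dissection or of any admixed tissue in the Hox values was not tested.

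M30 stood apart in genes of serotonergic neurons. The serotonin transporter Slc6a4 had 156, 173, 251 and 167 counts in F36, F37, M30 and M31, Tph2, the enzyme of serotonin synthesis, had 81, 77, 124 and 75, and the transcription factor Fev had 16, 21, 38 and 18, whereas Htr1a had 126, 127, 128 and 152. M30 was thus highest in 3 of the 4 genes, and the list summed to 21.1 TPM there against 14.1 to 14.8 TPM in the others. M30 also held the lowest value of Cdhr1 (389, 312, 165 and 493 counts), a cadherin of photoreceptors and of olfactory bulb neurons.

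Some noncoding RNAs varied in another way. Gm42047, an intergenic RNA and the most variable gene with a mean of at least 1000 counts, had 3561, 6361, 5227 and 7256 counts, lowest in F36 and highest in M31. Malat1, a nuclear-retained RNA, had 13694, 16932, 14296 and 17556 counts (CV 10.3%), and in both genes F37 and M31, the libraries with the most counts, exceeded F36 and M30 in CPM. Capn11 of the calpain proteases, the gene of the largest CV (72.5%), had 11 counts in F36 against 263, 381 and 208 in the others.

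Females and males could be compared at 2 brains each, all from the same litter. In edgeR's quasi-likelihood test with Benjamini-Hochberg adjustment, 13 of 18003 genes (0.0722%) had an adjusted p under 0.05, 6 higher in females and 7 higher in males. Outside X and Y the test called 3 of 17402 genes (0.0172%), and on X it called 5 of 593 (0.843%). An exact permutation test of 2 brains against 2 cannot go below p = 0.333, so these calls rest on the spread shared across genes. Leaving out F36, F37, M30 or M31 gave 21, 43, 41 and 47 calls.

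Xist and the genes of Y separated the brains by their labelled sex. Xist, the RNA that coats the inactive X of females, had 33384 and 32490 counts in the females and 16 and 13 in the males. The Y genes Eif2s3y (2 and 0 counts against 2204 and 2442), Kdm5d (3 and 2 against 1723 and 1715), Ddx3y (0 and 0 against 1503 and 1606) and Uty (4 and 3 against 710 and 754) and the Y noncoding RNA Gm29650 (0 and 0 against 400 and 344) were higher in males. Against the floor of 3 counts per library, or 0.109 CPM, Ddx3y with a male mean of 55.5 CPM was at least 508-fold higher in males. Gm47283, annotated on Y, had 2739 and 1902 counts in females and 678 and 1948 in males, and 30.7% of its windows were shared with other genes.

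Among 9 genes tested from the list of X genes known to escape silencing, 4 were called and all 9 had a higher estimate in females. Eif2s3x, a translation initiation subunit, had 9879 and 10491 counts in females and 6872 and 7366 in males, a log2 fold change of 0.52 ± 0.033 (SE; adjusted p = 1.22e-11, edgeR). The histone demethylase genes Kdm6a and Kdm5c followed with 0.50 ± 0.048 and 0.32 ± 0.038 (adjusted p = 1.29e-07 and 5.55e-06, edgeR), and the noncoding 5530601H04Rik with 0.41 ± 0.062 (adjusted p = 0.000733, edgeR, and 0.107 with no filter on low counts). Ddx3x (0.12 ± 0.032), Jpx (0.38 ± 0.092) and Pbdc1 (0.28 ± 0.068) were not called, with adjusted p from 0.277 to 0.426 (edgeR). In the other litter of the series, fitted alone, the estimates for the 4 called genes were 0.54, 0.46, 0.37 and 0.29. That litter is the stressed one, and the first 3 of these genes were also called there, while 5530601H04Rik was not (adjusted p = 0.245, edgeR). None of 12 tested X genes not known to escape was called, with log2 fold changes between -0.11 and 0.045. Over all 593 X genes the median log2 fold change was -0.015, beside 0.00072 for the 17402 genes outside X and Y.

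The 3 called genes outside the sex chromosomes were Stambp, Sulf1 and 1700048O20Rik. Stambp, a deubiquitinase of endosomal sorting, had 1107 and 1094 counts in females and 681 and 771 in males (log2 fold change 0.60 ± 0.062, adjusted p = 4.17e-07, edgeR), and 0.0046 in the other, stressed litter. Sulf1, which removes sulphate from heparan chains, had 868 and 851 counts in females and 1149 and 1082 in males (-0.37 ± 0.060, adjusted p = 0.00181, edgeR), and 0.40 in the other litter. The Sulf1 call was lost with no filter (adjusted p = 0.326, edgeR) and with all 8 brains in the fit (adjusted p = 0.939, edgeR). That fit still compared control females with control males only, and its estimate for Sulf1 stayed at -0.37. 1700048O20Rik had 225 and 287 counts against 466 and 339 (-0.65 ± 0.12, adjusted p = 0.0183, edgeR), and 0.026 in the other litter, and its call was lost without M30 (adjusted p = 0.136, edgeR), in DESeq2 and with no filter on low counts. The differences between the litters were not tested, and litter and stress cannot be told apart.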

How the data were processed

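From frozen brains, polyadenylated RNA was captured with oligo(dT) beads, and paired reads of 100 bases were sequenced. Per the study's methods, the authors trimmed reads with Trim Galore, aligned them to mm10 with TopHat2 (2.1.1) and counted pairs over exons per gene with featureCounts (1.6.3) and the annotation GENCODE M20, with no strand option and with reads of several positions or genes left out by default. The deposited values are raw counts per gene and library, with the exonic length beside them.

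Here gene names were taken from GENCODE M21 by identifier, and 29 of 54752 genes had none. CPM used the total of counts as deposited, and TPM the exonic length. Sexes were compared with edgeR (4.0.16, quasi-likelihood, TMM, filterByExpr at a minimum count of 10, Benjamini-Hochberg, adjusted p under 0.05), and DESeq2 (1.42.0) was the alternative. The tests were checked on simulated data. Without other information on the samples, p-values measure the spread between littermates only. Classes were matched by symbol, pseudogenes excluded, and Unc50, Tradd and Lhx1os, which the patterns took by mistake, were removed after the values were seen. Genes were named by rule: the 20 highest by TPM and CPM, up to 5 highest of a class or list and its defining members near 0, the 20 largest CVs (at least 100 counts) and 10 smallest (at least 1000 counts), and the called or listed sex genes. Hox groups 6 to 8, Malat1, Zfp57, the abundant genes with TATAAA and further list members named beside the highest were chosen after their values were seen. The members, lists and rules were all chosen with earlier results of these data known. Some genes are not reported here.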

Additional observations from a re-analysis of the deposited data

Results flagged for a closer look

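For each of 199 genes named here and 109 gene classes and marker lists, the brain with the highest or the lowest value was set against the nearest of the other 3, and 18 of the 308 values had a gap, as a share of the whole range, above the 95% critical value of Dixon. Chance gives about 1 in 20 such gaps, and 18 of 308 is near that rate. The rate holds for independent values not chosen for their spread. Here some genes were named for a large CV, and list sums were counted beside their own members. F36 held 8 of the 18, M30 held 6, M31 held 4 and F37 held 0.

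In F36, the homeobox genes Hoxa5 (39.9 CPM), Hoxb8 (11.4 CPM) and Prrxl1 (8.55 CPM), the transcription factor gene Mafa (12.3 CPM) and the collagen gene Col3a1 (8.62 CPM) stood above the other littermates. Acta1 (2.47 CPM) and the summed level of the 20 neuropeptide precursors (724.6 TPM against 692.2 to 695.5 TPM) were also highest there. Crh, the precursor of corticotropin-releasing hormone, stood lowest there (1.38 CPM, or 38 counts against 57 to 59).

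In M30, the serotonergic genes Slc6a4 (9.10 CPM) and Tph2 (4.50 CPM) and the sum of their list (21.1 TPM) stood above the others, as did the calcitonin receptor gene Calcr (16.6 CPM). Gad1 was lowest in M30 at 159.8 CPM against 165.6 to 165.9 CPM, and Neurod1 was highest there at 63.6 CPM against 62.9 CPM in each of the others.

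In M31, the folate receptor gene Folr1 (0.632 CPM, 18 counts against 11 in each of the others) and Thrb (2.99 CPM) stood above the others, and Egr1 (2.84 CPM) and mt-Cytb (4110 CPM) stood below them.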

How the results depend on the processing

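The number of detected genes, 16420 at 1 TPM in every brain, was 14740 at 1 CPM and 16980 at 10 counts. Without mitochondrial genes the 10, 100 and 1000 most abundant genes held 3.11%, 12.7% and 42.2% of the counts, and on the TPM scale 9.07%, 23.7% and 52.1%. The common biological coefficient of variation of 2.68% became 4.54% without a term for sex, by which differences between the sexes count as spread. Of the 20 most variable genes, 2 had a mean of at least 1000 counts, and all 20 remained when totals were scaled by TMM. The median CV of 3.77% was 2.76% at 1000 counts and lay between 3.31% and 3.79% when a brain was left out. The 13 calls between the sexes became 10 with no filter, 12 in DESeq2 and 12 with all 8 brains in the fit, and 21 to 47 when a brain was left out, where the lone sample of a sex is assumed to vary like the others. In the other, stressed litter alone, the log2 fold change of Sulf1 was 0.40 and that of 1700048O20Rik was 0.026. The sign was opposite in both, but neither gene was called there (adjusted p = 0.488 and 0.978, edgeR), and 1700048O20Rik showed no clear difference. The cause was not tested, and 14 genes were called in that litter. No paired analysis was possible because the sexes and groups share no replicate numbers. Depth limits genes under 100 counts, where the counting error is above 10%.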

Other observations

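Genes for axon guidance were mostly expressed. Of 34 semaphorin, plexin and neuropilin genes 30 reached 1 TPM in every brain, and of 22 Eph receptors and ephrins 21 did, against 61.4% of all protein-coding genes, and the latter class was led by Efnb3 (280.5 ± 10.4 TPM), a ligand that repels corticospinal axons at the midline. The Slit, Robo and netrin genes were led by the receptor Robo2 at 73.4 TPM. The summed counts of these 3 classes varied among brains by a CV of 0.580%, 0.396% and 1.56%, within the range of other classes such as solute carriers (0.274%), translation factors (0.552%) and cytosolic ribosomal proteins (2.50%). Among Wnt ligands and their Frizzled receptors, Wnt7b (85.2 TPM) and Fzd3 (75.5 TPM) were the highest of 29 genes. All 9 Notch ligands and receptors reached 1 TPM, led by Jag2 (36.8 TPM) and Dll1 (31.9 TPM).

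Potassium channel genes were numerous but low. Of 99 potassium channel genes 72 reached 1 TPM in every brain and 0 reached 100 TPM. Sodium channels were led by the beta subunit gene Scn3b (189 TPM) and by Scn3a (57.4 TPM), the alpha subunit known from the fetal brain, ahead of Scn2a (33.8 TPM) and Scn8a (23.0 TPM). Calcium channels were led by the auxiliary subunit gene Cacng4 (321.5 TPM).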
